A study of Mus musculus with 8 samples.

Results

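The simple epithelial keratin loci Krt7, Krt8, Krt18, Krt19 and Krt20 were examined in Hi-ChIP loop lists from mouse pancreatic cancer cells. Hi-ChIP reads which distant stretches of the genome touch at sites held by an immunoprecipitated protein. Each loop of the deposited lists joined 2 such stretches, its anchors. All loops with an anchor within 2 kb of an annotated transcription start of 1 of the 5 genes were taken, which gave 302 distinct loops of 249200 in the series. Each gene had 1 such anchor, so 5 anchors of 30542 were examined, and all 5 lay among the 13819 promoter anchors, those within 2 kb of any annotated start.

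The series compared FOXA1 and HNF4G, both transcription factors, in a primary tumor line and in a liver metastasis (liver mets) line of the KPC model, in which engineered mice form pancreatic tumors. Each factor in each line made 1 of 4 groups, with 2 replicates each, in cells labeled WT and untreated and grown in DMEM with 10% serum. The liver mets line was matched to the line from the KPC primary tumor, so a difference between the groups is a difference between these lines. Both replicates of a group shared 1 loop list, so there was no value per replicate, no test between groups was run, and the intervals below cover counting error only. The age of the animals was not given in the sources used here.

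Keratins form the intermediate filaments of epithelial cells by pairing a type I with a type II protein. Simple epithelia, such as the ducts of the pancreas, are known for Krt8 and Krt7 (type II) paired with Krt18 and Krt19 (type I), and Krt20 is a type I keratin known from the gut lining. Ductal pancreatic cancers are commonly recognized by KRT7 and KRT19. Mouse keratin genes lie in a type I cluster on chromosome 11 and a type II cluster on chromosome 15, and Krt18 is the exception, a type I gene beside Krt8 at the edge of the type II cluster. FOXA1 is a forkhead factor and HNF4G a nuclear receptor, and both are found in endoderm-derived epithelia.

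Coordinates are those of mm10, counted from 1, with GENCODE M21 genes. The Krt7 anchor (chr15:101410178-101416233) covered the gene's starts and exons and also the start of Gm671, an antisense gene. The Krt8 anchor (chr15:102002125-102008391) covered the Krt8 start and that of Gm36026. The Krt18 anchor (chr15:102021806-102035809) held the whole gene with its flanks and was 14 kb wide. The Krt19 anchor (chr11:100143925-100152377) was 8.45 kb wide and the Krt20 anchor (chr11:99437477-99440830) was 3.35 kb wide, and each held starts and exons of its own gene alone. The anchors of Krt7 and Krt8 were 6.06 and 6.27 kb wide. Wide anchors can collect more loops, so values are also given for the 588 promoter anchors of 6 kb or more.

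The sequences shown first are from both ends of the long loop that had the top value in all 4 lists, which joined the Krt18 anchor to an anchor at the far side of the type II cluster, and from the distal anchor of the matching Krt19 loop. Each is the 240-base stretch of its anchor that held the most matches to the letters searched and no exon of a coding gene, on the plus strand of GRCm38. Capitals mark matches to the forkhead letters TGTTTAC or TGTTTGC on either strand. The annotation placed all 3 stretches between genes.
Krt18 anchor, chr15:102026538-102026777: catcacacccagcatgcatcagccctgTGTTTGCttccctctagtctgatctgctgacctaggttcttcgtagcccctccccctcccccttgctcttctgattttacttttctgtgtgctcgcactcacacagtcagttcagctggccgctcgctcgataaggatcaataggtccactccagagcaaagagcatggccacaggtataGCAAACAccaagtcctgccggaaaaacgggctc
Distal partner of Krt18, chr15:101314890-101315129: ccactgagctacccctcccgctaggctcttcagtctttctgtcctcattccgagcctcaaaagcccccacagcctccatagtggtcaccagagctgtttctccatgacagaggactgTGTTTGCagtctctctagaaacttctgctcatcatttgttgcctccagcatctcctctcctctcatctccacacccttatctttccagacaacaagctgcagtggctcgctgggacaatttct
Distal partner of Krt19, chr11:100291314-100291553: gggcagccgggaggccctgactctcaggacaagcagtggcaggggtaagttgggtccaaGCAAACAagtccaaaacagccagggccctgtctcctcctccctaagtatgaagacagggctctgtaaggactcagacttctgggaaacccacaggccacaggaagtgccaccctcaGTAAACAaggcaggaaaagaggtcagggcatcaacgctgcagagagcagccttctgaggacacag

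The Krt18 stretch lay 1.40 to 1.64 kb before the gene's start and held 2 forkhead matches, the partner of Krt18 held 1 and the partner of Krt19 held 2. Over whole anchors the Krt18 anchor held 6 matches (0.428 per kb), its partner 5 (0.269 per kb) and the partner of Krt19 held 3 (0.359 per kb). The Krt19 and Krt7 anchors held 0 matches and those of Krt8 and Krt20 held 1 each. All 30542 anchors held 0.407 per kb, so that 1 of the 5 keratin promoter anchors, that of Krt18, was above this level. The 41 partner anchors of keratin loops in all 4 lists held 0.334 per kb, below the level of all anchors. The HNF4 letters CAAAGTCCA, CAAAGTTCA and CAAAGGTCA were found at 0.0423 per kb in those 41 anchors and at 0.0503 per kb in all anchors, and the 5 keratin promoter anchors held 0 such matches.

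Promoter sequences from RefSeq (GRCm38.p6) matched 4 of the 5 genes, Krt7, Krt8, Krt18 and Krt20. None of the 4 windows, from 250 bases before to 50 after the RefSeq start, held the forkhead or HNF4 letters, which were found in 8.48% and 1.33% of the 32851 RefSeq promoters. A TATAAA, searched on both strands after the sequences were seen, was in the Krt8 and Krt20 windows and in 13.6% of all promoters, and no TATAAA was in the Krt7 and Krt18 windows. In the Krt8 window the letters spanned the RefSeq start itself, and none lay in the bases before the upstream start that GENCODE gives. The Krt18 and Krt20 promoters are shown to contrast a window without TATAAA and one with it (capitals, 29 bases before the start), each on its gene's strand and ending before the annotated start.
Krt18 promoter, chr15:102027966-102028179, plus strand: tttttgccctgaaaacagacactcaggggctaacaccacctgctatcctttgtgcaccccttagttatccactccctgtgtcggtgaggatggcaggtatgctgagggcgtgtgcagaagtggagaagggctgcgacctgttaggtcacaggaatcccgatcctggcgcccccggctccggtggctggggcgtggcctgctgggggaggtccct
Krt20 promoter, chr11:99438154-99438403, minus strand: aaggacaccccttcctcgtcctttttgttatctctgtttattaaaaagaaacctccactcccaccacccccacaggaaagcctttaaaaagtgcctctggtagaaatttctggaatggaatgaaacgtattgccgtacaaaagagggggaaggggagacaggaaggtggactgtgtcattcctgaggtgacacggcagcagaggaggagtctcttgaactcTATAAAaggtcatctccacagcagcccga

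All 5 keratin promoters had many loops in every list, and Krt18 and Krt19 had the most. Krt18 had 57, 43, 35 and 36 loops, given first for FOXA1 (liver mets, then tumor) and then for HNF4G (liver mets, then tumor), an order kept from here on. Krt19 had 61, 42, 27 and 30 loops. Krt8, the type II partner of Krt18, had 31, 27, 20 and 23 loops, Krt20 had 29, 22, 17 and 21, and Krt7 had 28, 23, 13 and 17. Every gene was highest in the FOXA1 liver mets list, and both FOXA1 lists were above both HNF4G lists for every gene. The FOXA1 lists were also larger, with 125623, 104136, 78098 and 76323 loops in the 4 lists. As a share of promoter loops the keratins had 0.226%, 0.203%, 0.190% and 0.213%. By that share FOXA1 tumor was not above HNF4G tumor. The median promoter anchor had 7, 6, 4 and 4 loops, and the median promoter anchor of 6 kb or more had 22, 18, 14 and 15.

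**Figure D1:**
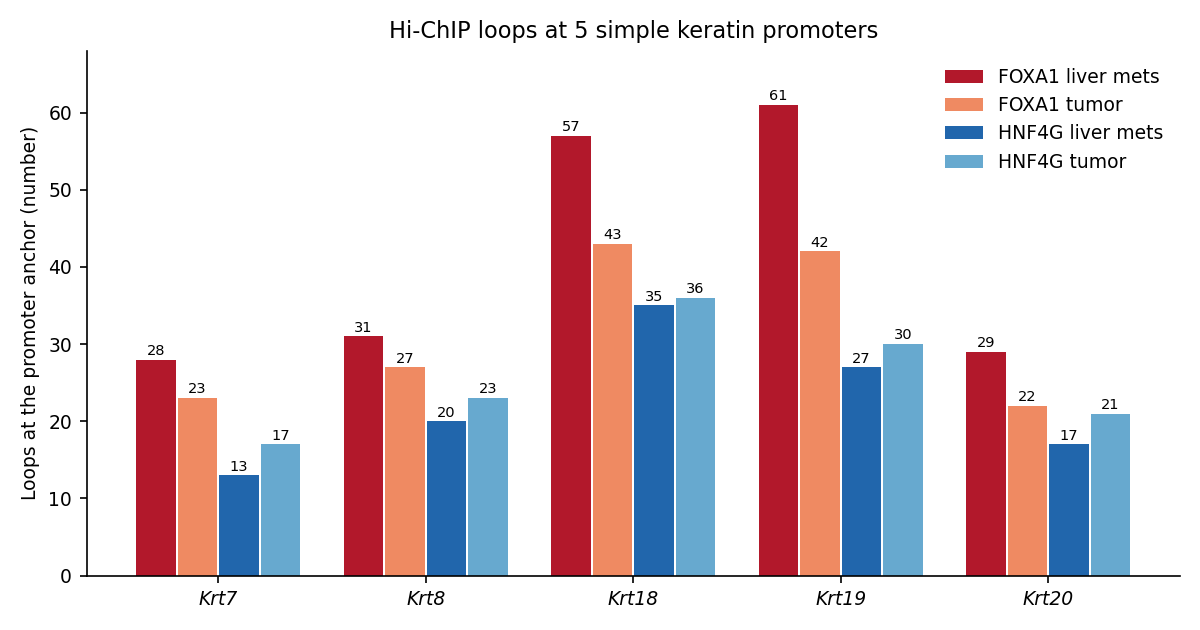
Number of loops (y axis) at the promoter anchor of each gene (x axis), with 1 bar per loop list and no error bar because each group had 1 list. Krt18 and Krt19 reached 57 and 61 loops in the FOXA1 liver mets list, while Krt7 fell to 13 in the HNF4G liver mets list.

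Against promoter anchors of 6 kb or more, Krt18 stood above 97.1%, 95.6%, 96.4% and 92.3% of anchors, and Krt19 stood above 98.3%, 94.9%, 87.6% and 87.9%. Krt7 stood above 65.5%, 68.4%, 42.5% and 58.5% of them, so its HNF4G liver mets count was below their median. Krt8 stood above 72.6% to 77.7% of these anchors. Krt20 has an anchor narrower than 6 kb, and against all promoter anchors it stood above 95.1% to 97.1%. The protein-coding gene with the closest counts over the 4 lists, by Euclidean distance among 10785 genes, was Gpr146 for Krt7 (distance 1.73), Gramd4 for Krt18 (3.16), Cdk2ap2 for Krt19 (4.12) and Phlda1 for Krt20 (2.24). For Krt8, Arsg and Zmynd8 were equally close (2.65). Next came Mgat4b for Krt7 (2.00), Hip1r for Krt18 (3.74) and Mxi1 for Krt19 (5.20).

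Between the lines, keratin loops were more numerous in liver mets for FOXA1. For HNF4G they were somewhat fewer in liver mets, by less than counting error. The 5 genes together had 202 and 153 FOXA1 loops in the liver mets and tumor lists, a ratio of 1.32 (95% exact interval 1.06 to 1.64), and 109 and 124 HNF4G loops, a ratio of 0.879 (0.673 to 1.15). All promoter loops had ratios of 1.19 for FOXA1 and 0.987 for HNF4G, and both lay inside the keratin intervals. The FOXA1 interval included 1 without Krt19 (1.27, 0.983 to 1.64), as a ratio of shares of all loops (1.09, 0.883 to 1.36) and after division by the ratio of all promoter loops (1.11, 0.898 to 1.38). The ratio was above 1 for FOXA1 and below 1 for HNF4G in all 5 genes. Of 1805 promoter anchors with 10 or more loops in every list, 69.4% had more FOXA1 loops in liver mets, 51.7% had fewer HNF4G loops in liver mets and 36.3% did both, so each direction on its own is common.

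Gene by gene, the FOXA1 ratio was 1.45 (0.965 to 2.21) for Krt19, 1.33 (0.877 to 2.02) for Krt18 and 1.32 (0.731 to 2.41) for Krt20. It was 1.22 (0.676 to 2.21) for Krt7 and 1.15 (0.663 to 2.00) for Krt8. The HNF4G ratio was 0.765 (0.342 to 1.67) for Krt7, 0.810 (0.401 to 1.61) for Krt20, 0.870 (0.453 to 1.66) for Krt8, 0.900 (0.515 to 1.57) for Krt19 and 0.972 (0.593 to 1.59) for Krt18. Every single-gene interval included 1, and neighbors in either order differed by less than their counting error.

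**Figure D2:**
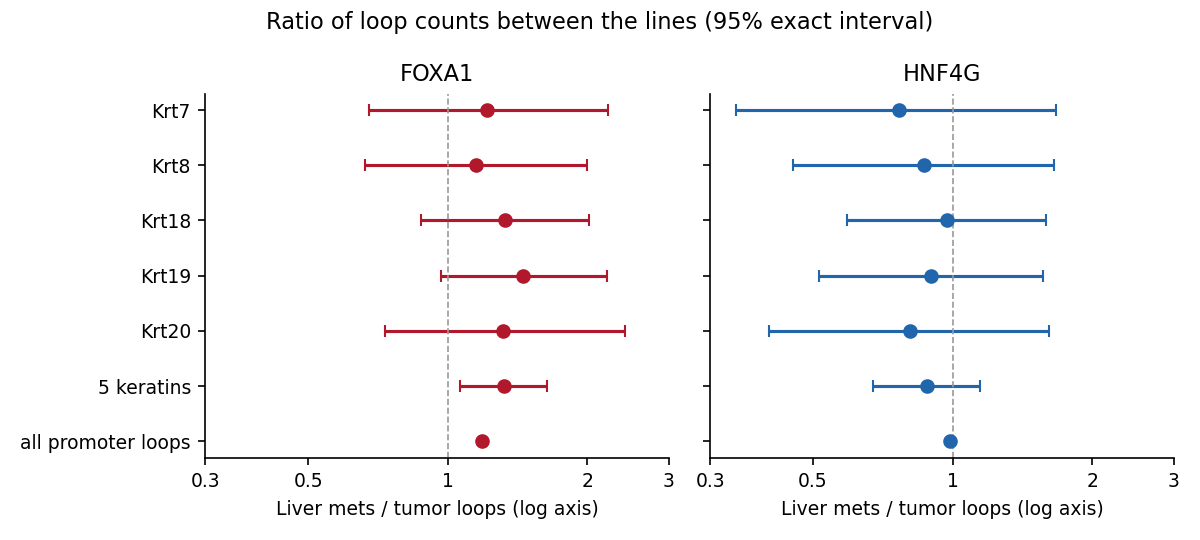
Liver mets to tumor ratio of loop counts (x axis, log scale) for each keratin, the 5 together and all promoter loops, with FOXA1 on the left and HNF4G on the right and bars giving 95% exact intervals from counting error. The interval of the 5 keratins lay above 1 for FOXA1 (1.06 to 1.64), though not without Krt19 (0.983 to 1.64) or as a ratio of shares of all loops (0.883 to 1.36), and included 1 for HNF4G (0.673 to 1.15).

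The FOXA1 ratio of the keratins was higher for longer loops, as it was for all promoter loops (1.09 between 20 and 100 kb). Between 20 and 100 kb the counts were 44 in liver mets and 42 in tumor (ratio 1.05), and between 500 and 1000 kb they had 70 and 50. Loops of 1000 to 2000 kb numbered 28 and 15, a ratio of 1.87 (0.964 to 3.76), where all promoter loops of that range had 1.40. For HNF4G the counts were 28 and 35 between 20 and 100 kb, 40 and 42 between 500 and 1000 kb, and 8 and 11 between 1000 and 2000 kb. All intervals within span ranges included 1.

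Both keratin clusters were spanned by these loops. The type II cluster, from Krt80 to Krt18, covered 684.6 kb with 26 keratin genes and 25 anchors, and the type I cluster covered 1037.1 kb with 27 keratin genes and 37 anchors. Loops with the partner inside the member's own cluster numbered 91, 74, 54 and 57, and loops to anchors outside numbered 111, 79, 55 and 67. Partners outside the cluster were the larger class for Krt18 in every list, with 38, 27, 22 and 21 outside against 19, 16, 13 and 15 inside. The same held for its neighbor Krt8, with 20, 14, 13 and 14 outside against 11, 13, 7 and 9 inside. Krt20 had the opposite order in every list, with 21, 15, 10 and 11 inside against 8, 7, 7 and 10 outside. Of 112 distinct loops inside the clusters, 28.6% (95% Wilson interval 21.02 to 37.54) were in all 4 lists, and of 190 to outside anchors, 10.5% (6.92 to 15.7) were. These 2 shares were not matched for span. The cluster length limits the loops inside it, while 1 of 53 keratin loops of 1000 to 2000 kb was in all 4 lists.

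The value of a loop was read as −log10 of an adjusted p, with a top of 20, so that a value of 2 stands for an adjusted p of 0.01. Values of 1.87, 1.91, 1.99 and 1.99 are long runs of ties in the 4 lists, at which most very long loops of any gene stand. Keratin loops reached 2 in 66, 42, 31 and 31 cases, which is 32.7%, 27.5%, 28.4% and 25.0% of them. The share of all promoter loops at 2 or more was 9.57%, 8.28%, 7.8% and 8.02%, and for promoter anchors of 6 kb or more it was 22.3%, 19.2%, 18.0% and 17.8%. The top value was reached by 14, 6, 3 and 5 keratin loops (6.93%, 3.92%, 2.75% and 4.03%), against 0.294%, 0.14%, 0.124% and 0.176% of all promoter loops and 1.40%, 0.757%, 0.625% and 0.836% of loops at promoter anchors of 6 kb or more.

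At the type II cluster, neighboring Krt8 and Krt18, whose products pair with each other, were joined at 23.5 kb with values of 20, 20, 8.45 and 10.1. The anchor between them (chr15:102012204-102018911, no gene) was joined to Krt18 at 20, 20, 9.43 and 20 and to Krt8 at 9.66, 4.76, 8.97 and 4.76. Krt7, at the opposite edge of the cluster, was joined to Krt18 over 615.6 kb in all 4 lists, with values of 6.08, 3.76, 1.99 and 3.86. The start anchors of Krt7 and Krt8 were joined over 592.1 kb in the FOXA1 lists alone, at 3.604 and 1.907. The next anchor, on an exon of Krt7 (chr15:101418384-101422338), was joined to Krt8 over 584.9 kb in both tumor lists. Its values were 1.91 for FOXA1 and 3.87 for HNF4G. Thus Krt8 and Krt18 were linked in every list, and the link from the Krt7 start anchor was listed more widely for Krt18 than for its nearer neighbor Krt8.

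The distal contact of Krt18 that was at the top value in every list lay 705.1 kb away, beyond Krt7 and Krt80. That anchor (chr15:101314431-101333022, 18.59 kb, with starts of the antisense gene Gm35853 and of Gm49499) had the top value of 20 with Krt18 in all 4 lists. The same anchor was joined to Krt8 over 681.5 kb at 20, 3.78, 3.93 and 3.93, and to Krt7 over 89.5 kb at 3.81, 1.58, 1.99 and 2.87. All 3 keratins of chromosome 15 reached it in all 4 lists. The values of the nearer Krt7 are at another span and cannot be ranked against those of Krt18. An anchor without a gene (chr15:101973971-101981330) was likewise reached by all 3 in all 4 lists, from Krt7 over 564.4 kb at 11.2, 1.91, 3.88 and 3.86.

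Near the same far edge, Krt18 was joined over 794.1 kb to an anchor on an exon of Grasp (chr15:101232427-101236898), with values of 20, 6.40, 9.65 and 20. A neighboring anchor at the Grasp start (chr15:101220017-101226210) was joined to Krt18 in all 4 lists at 1.87, 1.91, 4.02 and 1.99, of which 3 are tied values. The promoter anchor of Krt80, a type II keratin, was joined to Krt18 over 660.4 kb at 3.70, 1.91, 3.99 and 3.95. It was joined to Krt7 over 44.8 kb at 0.239, 0.882, 1.62 and 1.01, values at another span that cannot be ranked against those of Krt18. The nuclear receptor gene Nr4a1 (chr15:101265062-101268779) was reached by Krt18 over 761.9 kb with FOXA1 values of 3.81 in liver mets and 1.91 in tumor. Its HNF4G value was 6.72 in liver mets, and the tumor list did not hold it.

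On the other side of Krt18, outside the cluster, high values were found at short and middle distance. Anchors 10.6 and 16.8 kb away had values of 20, 10.3, 6.03 and 12.1, and of 20, 9.18, 5.33 and 7.03. The retinoic acid receptor gene Rarg (chr15:102241648-102249962) was joined to Krt18 over 217.0 kb at 11.2, 12.2, 1.82 and 3.22. Both FOXA1 values of this Krt18 loop were above both HNF4G values. The Krt8 loop to the same anchor did not follow this order, with 2.82 for FOXA1 in liver mets, no loop for FOXA1 in tumor, and 1.83 and 1.82 for HNF4G. The focal adhesion gene Tns2 (chr15:102097859-102108064) was joined to Krt18 over 74.2 kb at 8.30, 5.13, 1.60 and 1.20, with the same order of factors. It was joined to Krt8 over 97.7 kb at 3.22, 1.51, 3.47 and 1.02. The lists differ in size and their depth is unknown, so such orders of values between factors cannot be read as contact strength. Eif4b and Spryd3 were the other genes with a start at a partner that Krt18 kept in all 4 lists on this side.

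**Figure D3:**
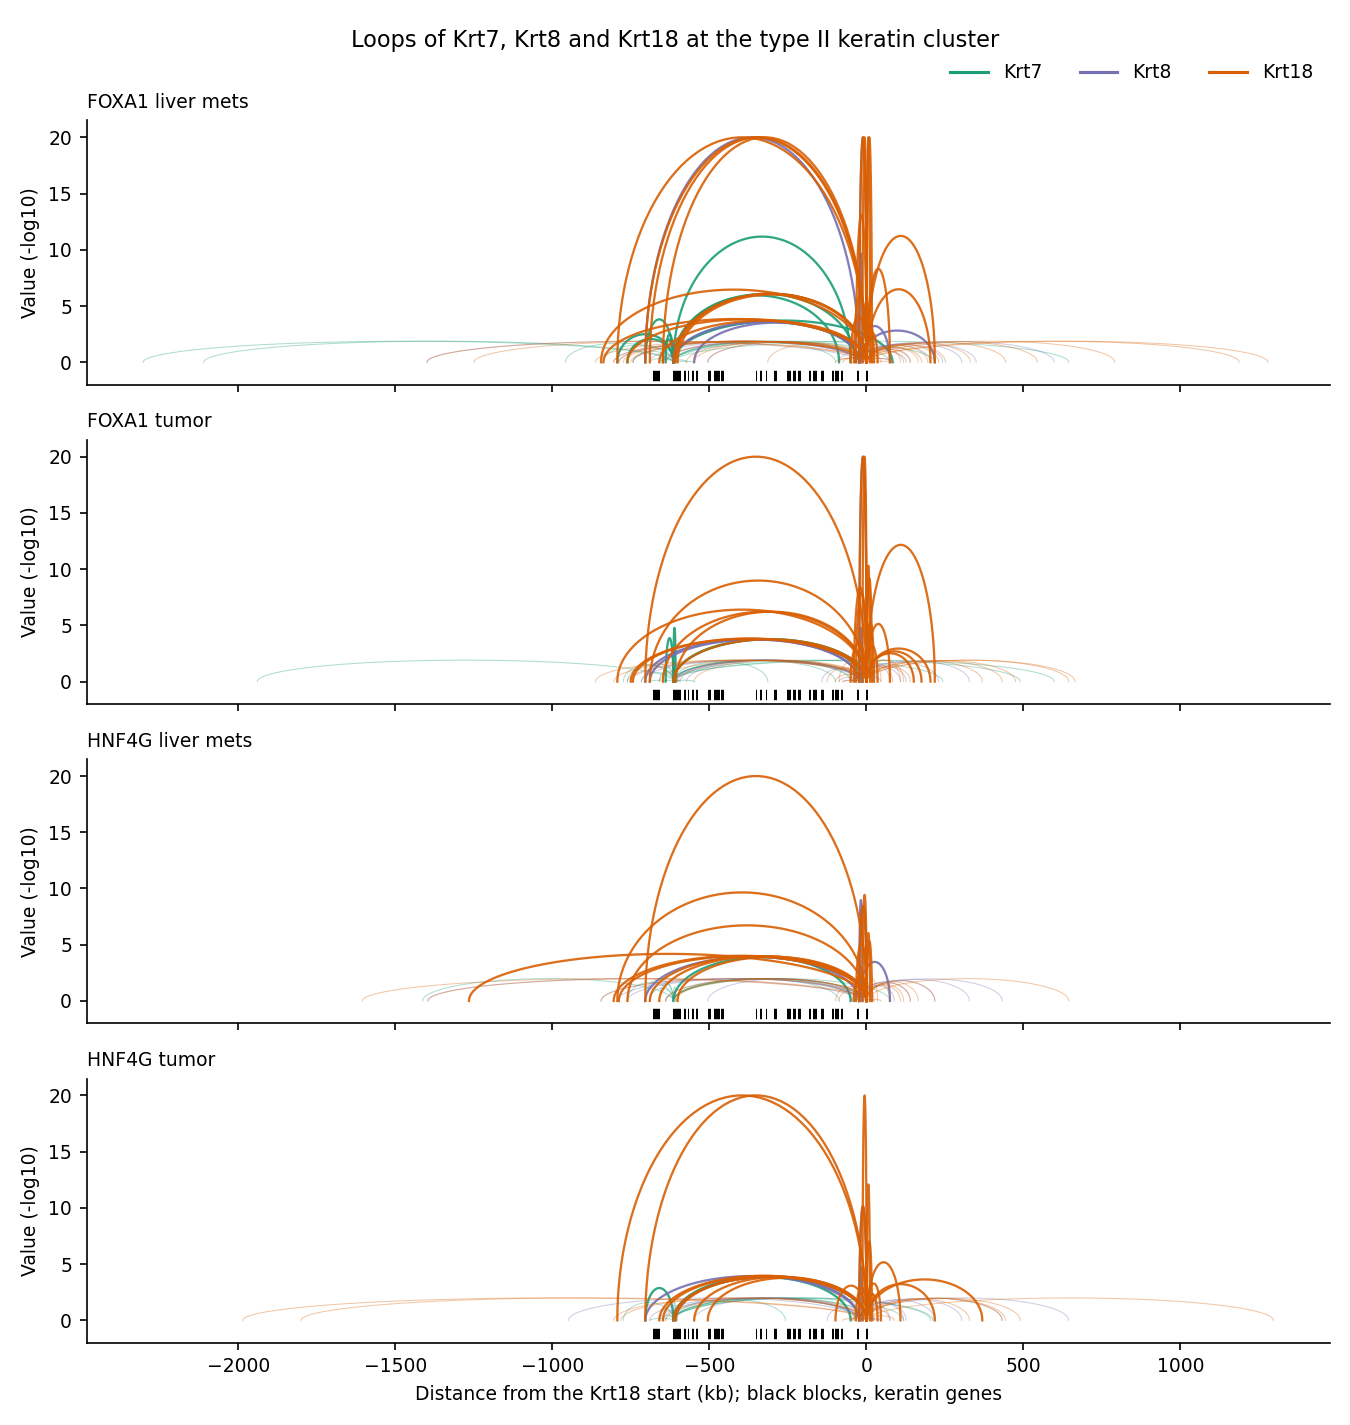
Loops of Krt7, Krt8 and Krt18, 1 panel per list, drawn as arcs between anchor centers at their distance from the Krt18 start (x axis, kb) with the height of the arc giving the value (y axis, −log10) and thin pale arcs for values below 2. The arc of Krt18 over 705.1 kb reached 20 in every panel, and strong long arcs lay on the side of the keratin genes (black blocks).

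At the type I cluster, Krt19 and Krt20 were joined to each other over 709.0 kb in all 4 lists, at 8.90, 6.23, 3.98 and 3.98. Krt19 lies close to the far end of the cluster from Krt20. Krt19 was also joined to an anchor 140.2 kb beyond it (chr11:100284167-100292516, with starts of the noncoding genes Gm12349 and Gm14206). That loop was at the top value of 20 in all 4 lists, and no other Krt19 loop was. Krt20 reached this anchor over 849.2 kb in all 4 lists as well, at 3.82, 1.91, 9.68 and 1.99. Each of the 2 loops that were at 20 in all 4 lists thus ended at a wide anchor outside the cluster that every keratin member of its chromosome reached in all 4 lists.

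Short contacts of Krt19 were also at or near the top. An anchor without a gene 9.4 kb before it (chr11:100153155-100161995) had values of 20, 20, 4.37 and 20, and the next one, 18.8 kb away (chr11:100164034-100169855), had 20, 3.55, 1.80 and 3.73. The former was also joined to Krt20 over 718.4 kb in 3 lists, at 11.8, 6.65 and 4.002, and was not listed in FOXA1 tumor. Among keratin neighbors, the Krt15 start anchor at 9.3 kb had 7.76, 6.69, 0.342 and 1.93, and the Krt13 anchor at 27.9 kb had 1.42, 3.01, 0.405 and 0.506. Krt15 and Krt13 are type I keratins of stratified epithelia.

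Krt23, a type I keratin beside Krt20, was joined to Krt19 over 656.6 kb in all 4 lists at 11.8, 11.9, 20 and 3.97 (chr11:99488696-99494470). Both FOXA1 values were alike, and the HNF4G values were the highest and the lowest of the 4. Tns4, a relative of Tns2, was joined to Krt19 over 1062.1 kb in all 4 lists (chr11:99081364-99090697) at 6.48, 1.91, 1.99 and 1.99, with the FOXA1 liver mets value alone above the ties. This was the single keratin loop of 1000 to 2000 kb in all 4 lists, of 53, while 4 of 23352 promoter loops of that range were in all 4.

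Some Krt19 contacts that reached the top value were not found in every list. The retinoic acid receptor gene Rara (chr11:98940653-98955489), 1200.1 kb away, had the top value of 20 in FOXA1 tumor, the tied value of 1.87 in FOXA1 liver mets and no loop in the HNF4G lists. An anchor without a gene (chr11:99100839-99109331), 1043.1 kb away, had 20 for FOXA1 in liver mets and the tied values of 1.91 for FOXA1 in tumor and 1.99 for HNF4G in liver mets. HNF4G in tumor had no loop to it. Another (chr11:99573212-99577780), 572.7 kb away, had 20 in FOXA1 liver mets and 1.99 in HNF4G liver mets and no loop in either tumor list. With 1 list per group, whether such values would recur in another library was not tested.

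**Figure D4:**
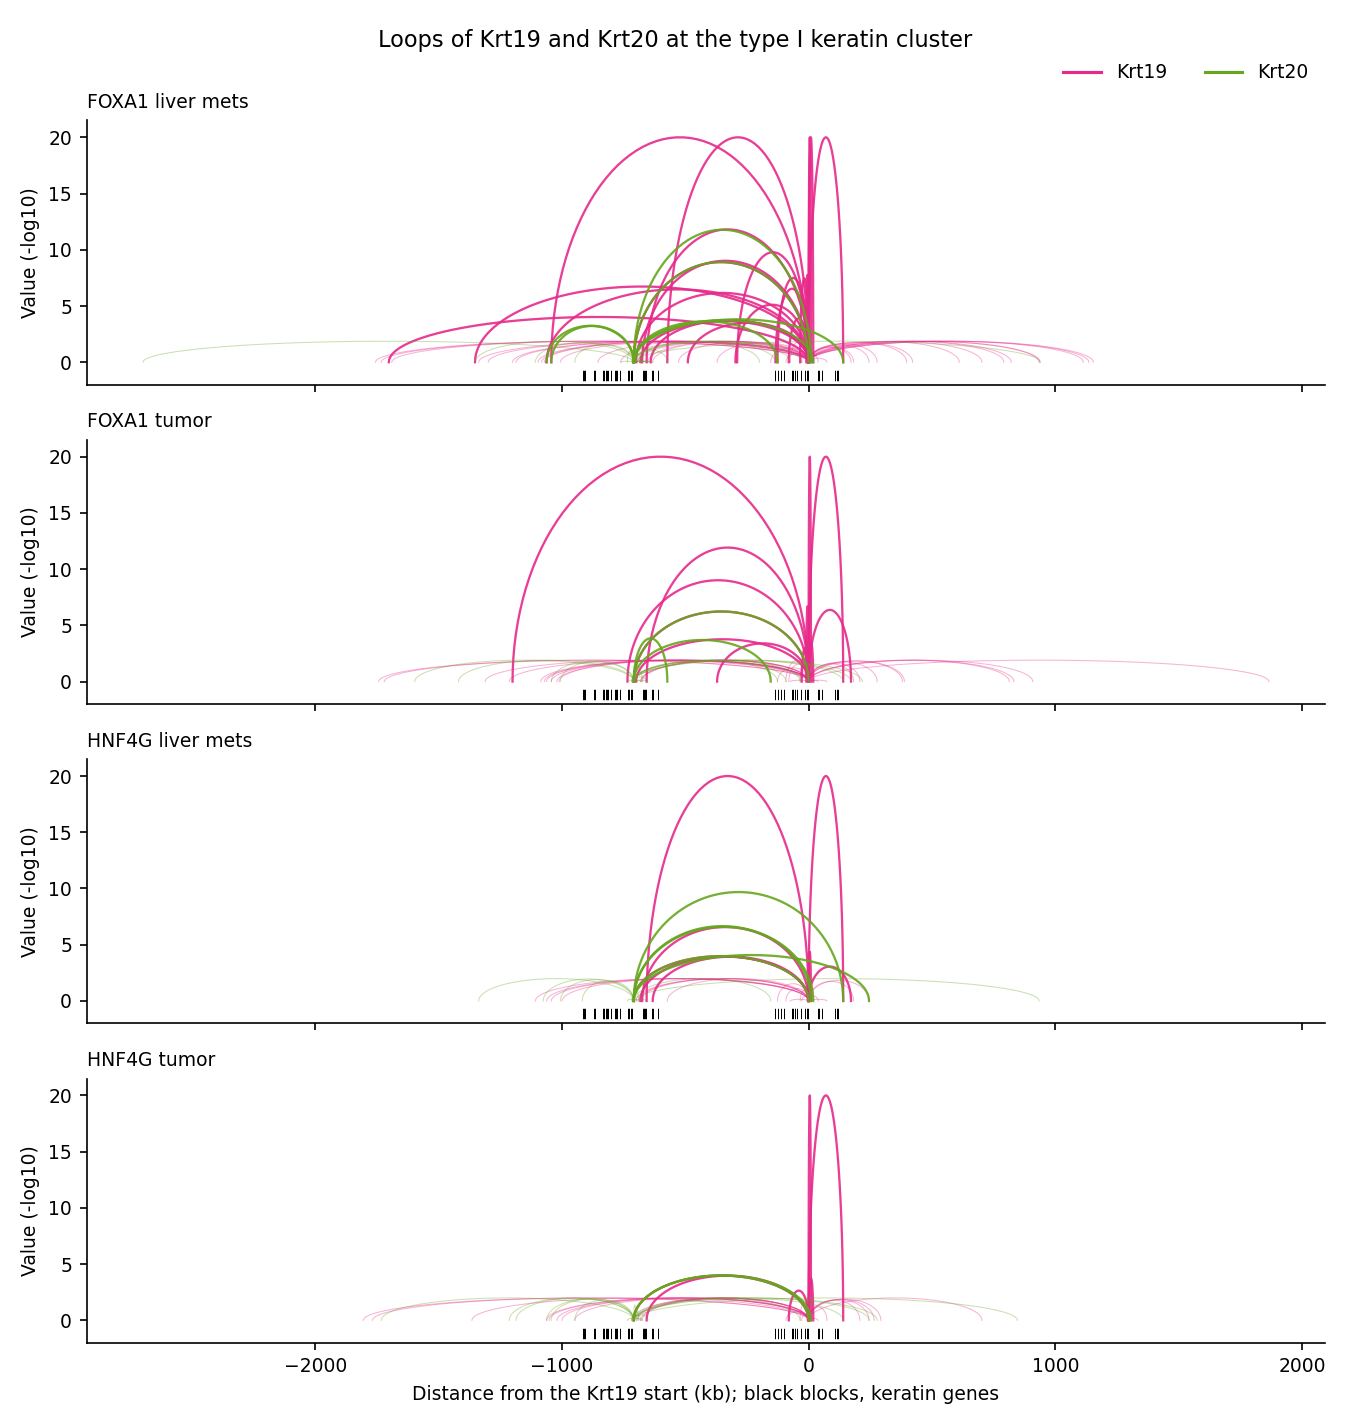
Loops of Krt19 and Krt20, 1 panel per list, drawn as arcs between anchor centers at their distance from the Krt19 start (x axis, kb), with arc height giving the value (y axis, −log10) and thin pale arcs for values below 2. The Krt19 arc of 140.2 kb to the right reached 20 in every panel, and the tall arc of 1200.1 kb to Rara appeared in the FOXA1 tumor panel.

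Median spans of keratin loops were 432, 252, 241 and 331 kb, where promoter loops had 174, 150, 123 and 142 kb and loops at promoter anchors of 6 kb or more had 216, 180, 147 and 170 kb. The difference exceeded counting error in FOXA1 liver mets alone (95% interval 266 to 575 kb), since the intervals of the other medians, which began at 136, 117 and 141 kb, included the promoter median. Without Krt19 the FOXA1 tumor median was 149.5 kb, equal to that of all promoter loops. The longest loop per list was 1989.1 kb (Krt20), 1866.2 kb (Krt19), 1643.4 kb (Krt20) and 1986.8 kb (Krt18). To allow for where anchors lie, each loop was set against the anchor pairs available at its span. Between 500 and 1000 kb, 31.1%, 22.2%, 17.8% and 18.7% of the 225 pairs of the keratin anchors were listed, against 5.39%, 3.99%, 2.61% and 3.02% for all promoter anchors and 14.7%, 10.2%, 7.03% and 8.67% for promoter anchors of 6 kb or more. The 95% Wilson intervals of the keratin shares began at 25.4%, 17.3%, 13.3% and 14.1%. At 100 to 500 kb the keratin shares were 32.6%, 22.7%, 14.2% and 17.0%, all below the 38.5%, 31.3%, 23.1% and 25.3% of the wide promoter anchors. The keratin intervals ended at 40.7%, 30.3%, 20.9% and 24.1%. In this range the keratins were thus below the wide anchors by more than counting error in every list except FOXA1 liver mets. At 20 to 100 kb the keratin shares were 88.0%, 84.0%, 56.0% and 70.0%, against 78.2%, 70.9%, 62.8% and 63.4%, and the FOXA1 tumor share alone lay above the wide anchors by more than counting error (71.5 to 91.7). Of these 3 ranges, the one from 500 to 1000 kb was where the keratin intervals of all 4 lists lay above the wide promoter anchors.

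**Figure D5:**
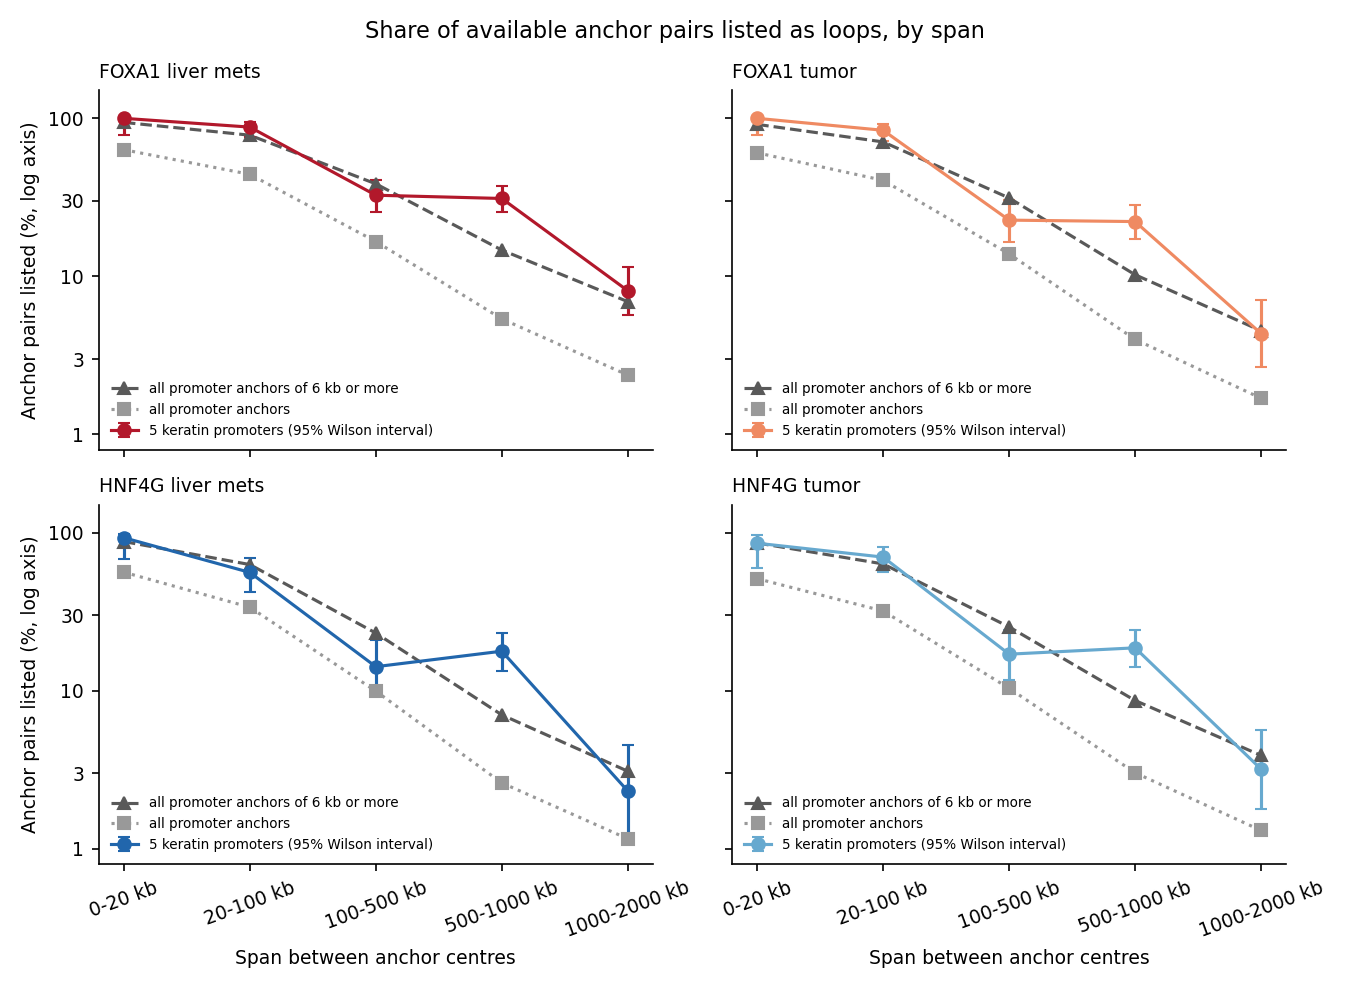
Percent of available anchor pairs that were listed as loops (y axis, log scale) by span between anchor centers (x axis) for the 5 keratin promoters (95% Wilson intervals from counting error), promoter anchors of 6 kb or more (triangles) and all promoter anchors (squares), with 1 panel per list. Keratin shares stood above the wide promoter anchors between 500 and 1000 kb in all 4 panels, for example 31.1% against 14.7% in FOXA1 liver mets.

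Loops of 500 to 1000 kb ran across the keratin clusters more often than away from them. Counted per gene, so that a loop between 2 members counts for each, 63, 46, 39 and 41 of 143 pairs on the side of the cluster were listed (44.1%, 32.2%, 27.3% and 28.7%), and 10, 7, 3 and 3 of 85 pairs on the other side (11.8%, 8.24%, 3.53% and 3.53%). The same order held in this range for each of the 5 genes over the lists combined. For Krt18, 22 of 28 pairs across the cluster and 4 of 10 pairs away from it were listed in at least 1 list, and for Krt19 the counts were 19 of 22 and 9 of 26. For Krt7 they were 17 of 41 and 1 of 11, for Krt8 19 of 27 and 2 of 12, and for Krt20 16 of 25 and 5 of 26. Of the pairs across the cluster 15 were in all 4 lists, and of those away from it 0 were. The order was the opposite at 100 to 500 kb, with 31.3%, 18.8%, 6.25% and 6.25% of 32 pairs across the cluster and 33.0%, 23.9%, 16.5% and 20.2% of 109 pairs away from it, and with 0 and 3 in all 4 lists. Krt19 did not follow it, with 7 of 8 pairs across and 12 of 17 away in at least 1 list, nor did Krt8, with 3 of 6 and 14 of 28. At 1000 to 2000 kb the shares were 11.6%, 7.51%, 4.62% and 5.20% of 173 pairs across the cluster. Away from it they were 4.65%, 1.16%, 0% and 1.16% of 172 pairs. The 5 genes share clusters and partner anchors, so they are not independent of each other.

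Partners were shared between the keratins. On chromosome 15, 24 of 90 partner anchors were reached by all 3 of Krt7, Krt8 and Krt18 in at least 1 list each, and 32 more by a pair of them. On chromosome 11, 39 of 97 were reached by both Krt19 and Krt20. Neighboring anchors have much the same anchors in reach. How often other neighboring promoter anchors share partners was not counted, so whether this sharing is particular to the keratins was not tested. The anchors reached by all 3 included those of Krt80, Krt79, Rarg, Tns2, Nr4a1, Igfbp6 and Itgb7. Partner anchors were promoter anchors in 53.5%, 47.1%, 45.0% and 47.6% of keratin loops. Of all promoter loops, 37.6%, 38.8%, 40.0% and 42.0% had promoter anchors at both ends. That share is taken over loops and not from each promoter anchor, as the keratin share is, which makes it lower. The lower bounds of the keratin intervals were 46.6%, 39.3%, 35.9% and 39.0%. In FOXA1 tumor the bound was 37.9% without Krt7 and 35.8% without Krt18. Because the keratin share and the share of all promoter loops are counted differently, neither an excess nor a deficit can be read from them. Whether keratin partners are promoter anchors more or less often than partners of other promoter anchors was not tested. No difference between the factors was tested, and their intervals overlapped.

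Of the 48 other keratin genes of both clusters, 9 had an anchor within 2 kb of a start (Krt10, Krt13, Krt15, Krt23, Krt33a, Krt5, Krt78, Krt79 and Krt80), where 49.6% of 21728 protein-coding genes did. Keratins of stratified epithelia went both ways. Krt14, Krt16, Krt17, Krt1, Krt6a and Krt6b had no anchor, and the basal keratin Krt5 had 8, 8, 3 and 4 loops. Krt15 had 31, 17, 14 and 19 loops, Krt13 had 20, 21, 16 and 15, and Krt10 had 11, 11, 3 and 6. Krt79 had 48, 37, 30 and 31 loops over 2 anchors, and Krt23 had 43, 28, 22 and 28, both above Krt7, Krt8 and Krt20 in every list. All 9 had a loop to at least 1 of the 5 simple keratins. Expression of these genes was not analysed here.

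Membership in the 4 lists showed that keratin loops recurred more often than promoter loops in general. Of the 302 distinct loops, 52 (17.2%, 95% Wilson interval 13.4 to 21.9) were in every list, and 153 (50.7%) were found in a single one. The background over all promoter loops was 5.54% in all 4 lists and 65.7% in 1 list only, and 4.05% in all 4 when weighted to the keratin spans. For promoter anchors of 6 kb or more the share in all 4 was 13.2%, just below the keratin interval, but inside it without Krt18 (14.3%, 10.4 to 19.5) or with a 5 kb window (15.8%, 12.7 to 19.6). Krt18 had 21 of 74 loops in all 4 lists, Krt8 8 of 53, Krt7 7 of 43, Krt19 14 of 88 and Krt20 5 of 48.

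Between 500 and 1000 kb, 13 of 111 keratin loops (11.7%, 6.97 to 19.01) were in all 4 lists, against 0.322% of 29463 promoter loops and 1.38% of 4696 loops at promoter anchors of 6 kb or more. Between 20 and 100 kb, 24 of 49 (49.0%, 35.6 to 62.5) were in all 4, and the wide promoter anchors had 38.0%, inside the keratin interval. Between 100 and 500 kb, 3 of 75 (4%, 1.37 to 11.1) were, against 2.14% of promoter loops and 7.78% at the wide promoter anchors, both inside the keratin interval.

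The loops in 1 list only numbered 74 and 38 for FOXA1 (liver mets and tumor) and 14 and 27 for HNF4G. The FOXA1 lists of both lines had 98 keratin loops in common, 48.5% of the liver mets and 64.1% of the tumor loops, and all promoter loops had 34.2% and 40.6%. The HNF4G lists of both lines had 61 in common, 56.0% of liver mets and 49.2% of tumor, against 34.1% and 33.7%. In liver mets the factors had 84 in common, 41.6% of FOXA1 and 77.1% of HNF4G loops (68.3 to 84.0), against 28.3% and 44.1%. In the tumor line they had 75 in common, 49.0% of FOXA1 and 60.5% of HNF4G loops (51.7 to 68.6), against 29.6% and 38.4%.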

How the data were processed

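Hi-ChIP loop lists of 8 samples in 4 groups were used, 1 list per group over both replicates. Per the labels, the authors ran HiC-Pro 3.1.0 on mm10, and per the study's methods hichipper called the loops. Where the anchors came from and how many paired reads a loop needed were not given in the sources used here, and depth is unknown. The authors deposited an unnamed value per loop. It was read, from its ties and its top alone, as −log10 of an adjusted p. The display score deposited by the authors is the whole part of that value plus 1, times 10, and was not analysed.

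Anchors were matched to GENCODE M21 starts within 2 kb with Python 3.11.15, pandas 2.3.3, numpy 2.4.6 and scipy 1.17.1. Loops were the same when both anchors were identical, and span was the distance between anchor centers. Ratios had exact intervals and shares Wilson intervals at 95%, checked on simulated data. They treat loops as independent. A cluster was a run of Krt genes (number and optional letter) with gaps under 1 Mb. Named loops were those between members, those in all 4 lists, those with the highest values and those reached from several members. Other strong loops were named after their values were seen. The members, lists and comparisons were chosen with earlier results of these data known, and the comparisons with anchors of 6 kb or more and by side were added after the data were seen. Alternatives were start windows of 0 and 5 kb, gene 5′ ends, a value of 2 or more, leaving out each gene, and, for the ratios, shares of all loops or division by the ratio of all promoter loops.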

Additional observations from a re-analysis of the deposited data

Results flagged for a closer look

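The liver mets to tumor ratio of keratin loops was 1.32 for FOXA1 and 0.879 for HNF4G. It was picked out because all 5 genes lay above 1 for FOXA1 and below 1 for HNF4G. With a single list per group the gap between FOXA1 and HNF4G was not tested, and 36.3% of promoter anchors with 10 or more loops in every list had the same pair of directions.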

How the results depend on the processing

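Over 21 results and 193 alternatives, 184 moved by less than counting error or by less than 1.5 times, 9 moved further and 0 reversed. All 9 came from keeping loops with a value of 2 or more, which removes loops by construction. The numbers of keratin loops were then 66, 42, 31 and 31, those inside the clusters 38, 23, 16 and 19, and the median span of the HNF4G liver mets loops 660 kb. Under the same setting the HNF4G ratio went from 0.879 to 1 (0.588 to 1.70), within counting error but with no direction left. Among the rest, the FOXA1 ratio of 1.32 fell to 1.09 as a ratio of shares of all loops, to 1.11 when divided by that of all promoter loops and to 1.27 without Krt19, and its interval then included 1. No paired analysis was possible because each group had 1 list over both replicates, and leaving out a replicate was not run for the same reason. The unknown depth limits all counts.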
